A study of Mus musculus with 3 samples.

Results

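The genes described here are 9 genes of TNF receptor signalling and apoptosis in mouse liver: the receptor genes Tnfrsf12a, Tnfrsf1a, Tnfrsf1b, Fas and Tnfrsf21, the inhibitor genes Cflar and Birc3, and Casp8 and Bid, which encode a caspase and its substrate. Table rows were taken where the platform annotation, or the current RefSeq name of its symbol, gave one of these genes. All 9 genes were found, among 16390 named genes, on 10 rows of 23473. A value on every array was present for 8 of them, among 10179 named genes with such values, and Tnfrsf21 was blank on 1 array. Of the 5 receptors, Tnfrsf1a, Fas and Tnfrsf21 carry a death domain, and Tnfrsf12a and Tnfrsf1b do not, so that "death receptors" covers only part of the set.

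TNF family ligands bind receptors of hepatocytes and immune cells, and receptors with a death domain recruit adaptor proteins that activate caspase-8. Caspase-8 cleaves BID, which carries the signal to mitochondria, while c-FLIP and the IAP proteins restrain the pathway and NF-kB induces genes that protect the cell. D-galactosamine blocks RNA synthesis in hepatocytes, so that TNF released after lipopolysaccharide kills them. Much of this pathway is set by protein cleavage and binding, which an RNA array does not measure.

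The study used female C57BL/6 mice, wild-type or TMX-/-, the latter lacking a thioredoxin-related membrane protein of the endoplasmic reticulum encoded by Tmx1. Treated mice received 3 ng lipopolysaccharide (LPS) with 10 mg D-galactosamine (GalN) intraperitoneally, and all livers are labelled 24 h. There were 3 arrays of 2 channels, and the Cy5 channel of each held untreated wild-type liver. The Cy3 channel held wild-type LPS/GalN liver, TMX-/- untreated liver or TMX-/- LPS/GalN liver, with 1 array each. The age of the mice, whether RNA was pooled and whether the reference was 1 preparation are not stated in the labels.

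Values are log2 ratios to untreated wild-type liver, centred on each array's median over the 10179 genes, and a difference between 2 arrays is a log2 difference. A value of 1 or more in size is counted as 2-fold. No difference could be tested against the spread between mice. The only error at hand is the SD of a single probe, from 81 genes with 2 probes, which was 0.42, 0.42 and 0.76 for wild-type LPS/GalN, TMX-/- untreated and TMX-/- LPS/GalN liver. Tmx1 stood at 0.59, -2.96 and -3.88 in the same order, so the sample was taken as the numerator and untreated wild-type liver as the denominator. The labels do not state this direction, which is therefore only likely, and with the opposite numerator every "higher" would read "lower".

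Tnfrsf12a stood apart from all other members in TMX-/- LPS/GalN liver and not in the other livers. Tnfrsf21 stood 0.15 below it in wild-type LPS/GalN liver, and Casp8 stood above it in TMX-/- untreated liver. It encodes Fn14, the receptor of the cytokine TWEAK, which is known to be induced on injured hepatocytes and biliary progenitor cells and signals through TRAF adaptors to NF-kB. Its log2 ratio was 0.78 in wild-type LPS/GalN liver, 0.43 in TMX-/- untreated liver and 4.94 in TMX-/- LPS/GalN liver. The first 2 livers differed by 0.35, less than the SD of a single probe for that difference (0.38), and the third lay far above both. In TMX-/- LPS/GalN liver the ratio corresponded to 30.6-fold, and only 3 of the 10179 genes stood higher. With all arrays given the same spread it stood at 3.05, a scaling that cannot change a rank within 1 array. In the other livers it ranked 557 and 1292 from the highest.

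The promoter windows of Tnfrsf12a, of Casp8, the other member to pass 2-fold in TMX-/- LPS/GalN liver, and of Fas, which stayed near 0, are shown side by side. Each is the 250 bases before the start in the RefSeq table of GRCm38.p6, read 5′ to 3′ on the gene's strand, with matches to the searched motifs in capitals. They lie at chr17:23677450-23677699 on the minus strand (Tnfrsf12a), chr1:58802252-58802501 on the plus strand (Casp8) and chr19:34290409-34290658 on the plus strand (Fas).
Tnfrsf12a: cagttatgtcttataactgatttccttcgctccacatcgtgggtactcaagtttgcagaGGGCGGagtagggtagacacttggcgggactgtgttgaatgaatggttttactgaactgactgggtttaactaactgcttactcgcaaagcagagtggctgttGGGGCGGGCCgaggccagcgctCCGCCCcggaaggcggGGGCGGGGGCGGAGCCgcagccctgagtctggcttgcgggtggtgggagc
Casp8: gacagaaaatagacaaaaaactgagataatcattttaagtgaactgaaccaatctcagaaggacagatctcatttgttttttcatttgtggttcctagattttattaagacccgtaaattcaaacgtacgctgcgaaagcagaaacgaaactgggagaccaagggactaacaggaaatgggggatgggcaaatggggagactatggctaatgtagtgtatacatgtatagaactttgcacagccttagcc
Fas: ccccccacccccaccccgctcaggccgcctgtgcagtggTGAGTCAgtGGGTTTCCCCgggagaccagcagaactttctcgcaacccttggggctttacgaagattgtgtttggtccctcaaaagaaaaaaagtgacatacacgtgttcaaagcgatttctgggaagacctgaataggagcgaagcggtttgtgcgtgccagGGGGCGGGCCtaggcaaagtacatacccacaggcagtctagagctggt
The motifs searched on both strands were GGG and CC with any 5 bases between them for NF-kB, TGANTCA for AP-1, GGGCGG for the GC box and TATAAA for TATA. The Tnfrsf12a window had 5 GC box matches and 2 of the loose NF-kB pattern, both of which overlapped GC boxes, and no AP-1 or TATA match. The Fas window had an AP-1 match, a GC box and 3 NF-kB matches, of which 2 were the same 10 bases read on both strands and the third overlapped the GC box. The Casp8 window had 0 matches, so it stands in lower case throughout. Over the 9 members, 6 windows held the NF-kB pattern, 5 a GC box, 1 AP-1 and 1 TATA. Among all 32851 windows of this length the shares were 45.8%, 32.7%, 6.75% and 12.4%. The windows of Tnfrsf12a, Casp8 and Fas had 58.8%, 39.6% and 56.4% G or C. These are letter matches only and were not set against any binding data.

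**Figure D1:**
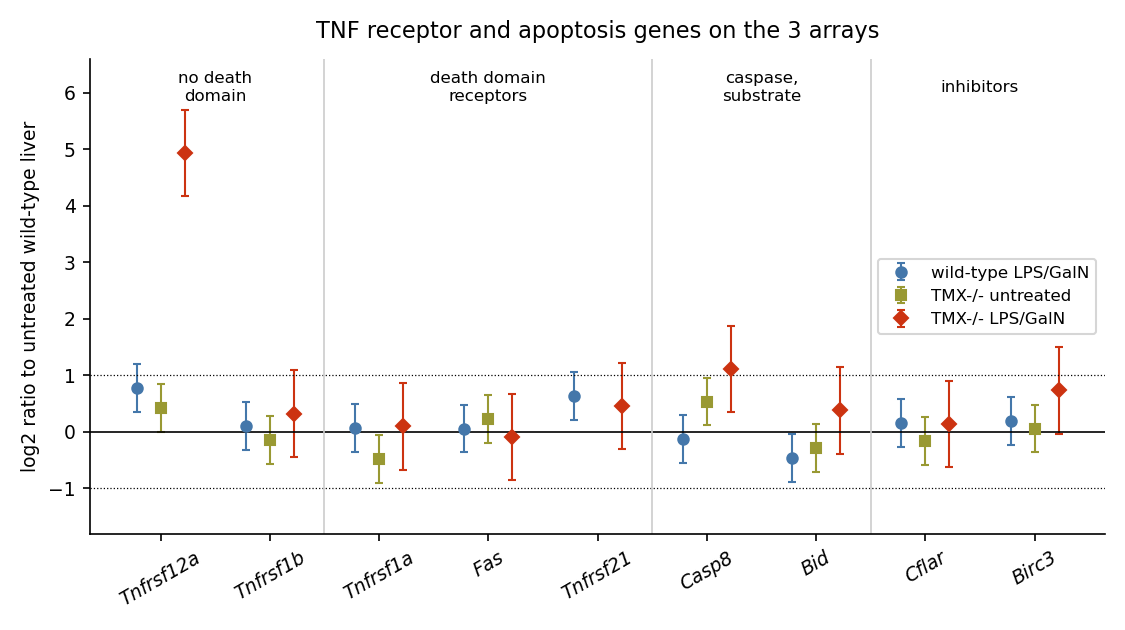
Log2 ratio to untreated wild-type liver (vertical axis) of the 9 genes on the 3 arrays; points are single arrays and bars are ± the SD of a single probe (0.42, 0.42 and 0.76), with dotted lines at 2-fold. Tnfrsf12a in TMX-/- LPS/GalN liver, at 4.94, lies far above every other point, the next being Casp8 at 1.11 in the same liver; Tnfrsf21 has no point for TMX-/- untreated liver.

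Tnfrsf1b, the other receptor without a death domain, encodes TNFR2, which binds TNF and is found mainly on immune and endothelial cells. It stood at 0.11 in wild-type LPS/GalN liver, -0.14 in TMX-/- untreated liver and 0.33 in TMX-/- LPS/GalN liver. All 3 values were within the SD of a single probe of 0, and none of them set one liver apart.

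The members among the receptors with a death domain showed no value of 2-fold against untreated wild-type liver. Tnfrsf1a, which encodes TNFR1, the receptor through which TNF kills hepatocytes in this model, stood at 0.07 in wild-type LPS/GalN liver, -0.48 in TMX-/- untreated liver and 0.10 in TMX-/- LPS/GalN liver. It was nearly level in both treated livers, which differed by 0.03, and lowest in TMX-/- untreated liver, by slightly more than the SD of a single probe below 0. Fas, the receptor of Fas ligand, stood at 0.06, 0.23 and -0.09 in the same order, all smaller than the SD of a single probe. Tnfrsf21, which encodes the death receptor DR6, stood at 0.63 in wild-type LPS/GalN and 0.46 in TMX-/- LPS/GalN liver and was blank in TMX-/- untreated liver. Only the first of its values exceeded the SD of a single probe.

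Casp8, the initiator caspase of death receptors, was the one other member past 2-fold against untreated wild-type liver, but stood at 0.69 there with equal spread of the arrays. Its ratio was -0.12 in wild-type LPS/GalN liver, 0.54 in TMX-/- untreated liver and 1.11 in TMX-/- LPS/GalN liver. Both TMX-/- livers were above the wild-type one, also without treatment. With equal spread Casp8 stood at 0.86 in TMX-/- untreated liver, above the 0.69 of TMX-/- LPS/GalN liver, so the order of these livers depends on the spread of the arrays. Bid, the BH3-only protein that caspase-8 cleaves, stood at -0.46, -0.28 and 0.38. It was below 0 in the first 2 livers and above 0 in TMX-/- LPS/GalN liver, there by less than the SD of a single probe.

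The inhibitor genes showed no value of 2-fold. Cflar encodes c-FLIP, which blocks caspase-8 at the receptor, and stood at 0.16 in wild-type LPS/GalN liver, -0.16 in TMX-/- untreated liver and 0.14 in TMX-/- LPS/GalN liver. It is the one member with 2 probes, which read 0.37 and -0.05 in wild-type LPS/GalN liver, -0.11 and -0.21 in TMX-/- untreated liver, and -0.04 and 0.33 in TMX-/- LPS/GalN liver. The probes disagreed in sign in both treated livers, so no direction is given for this gene. Birc3 encodes cIAP2, a ubiquitin ligase of the TNF receptor complex and a known NF-kB target, and stood at 0.19, 0.06 and 0.74. It was highest in TMX-/- LPS/GalN liver, by less than the SD of a single probe above 0. RefSeq gives Birc2 among the older names of Birc3, so the row annotated Birc2 may have been named by either usage, and it stood at -0.10, 0.08 and -0.04.

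Counts over the 8 members with 3 values are read beside the share of all genes at 2-fold. In wild-type LPS/GalN liver 0 of 8 members were 2-fold higher or lower, against 2.8% of the 10179 genes higher and 1.75% lower, 4.55% in all. In TMX-/- untreated liver it was also 0 of 8, against 1.78% higher and 0.835% lower, 2.61% in all. In TMX-/- LPS/GalN liver Tnfrsf12a and Casp8 were 2-fold higher, 2 of 8, and none was lower, against 13.6% of genes higher and 13.2% lower, 26.8% in all. With so few members, and with the spread of that array more than that of the others (SD over genes 1.04, against 0.48 and 0.40), 2 of 8 is not a result about the set. The median of the 8 members was 0.09, -0.04 and 0.35 on the 3 arrays, where the median of all genes was 0.

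The response to LPS/GalN in mice lacking TMX was read from treated against untreated TMX-/- liver. Tnfrsf12a was 4.51 higher, or 22.7-fold, rank 7 among 10179 genes, and was the 1 of 8 members at 2-fold, against 11.4% of genes higher and 12.1% lower, 23.5% in all. With equal spread of the arrays it stood at 2.37, rank 29. The SD of a single probe for this difference was 0.67. The next members were Birc3 at 0.67, Bid at 0.67, Tnfrsf1a at 0.58, Casp8 at 0.57 and Tnfrsf1b at 0.47, and Fas was the lowest at -0.32. For Tnfrsf1a most of the difference is its low value in TMX-/- untreated liver, and Casp8 changed sign, to -0.17, when all arrays were given the same spread. The gap between Tnfrsf12a and the next member was 3.83.

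After LPS/GalN, TMX-/- liver was set against wild-type liver, so that both were treated. Tnfrsf12a was 4.16 higher in TMX-/- liver (17.8-fold, rank 5) and Casp8 1.23 higher (2.35-fold, rank 607), 2 of 8 members, against 9.64% of genes higher and 10.6% lower, 20.3% in all. The SD of a single probe was 0.59 here. Bid was 0.84 and Birc3 0.55 higher. The other receptors differed little, with Tnfrsf1b at 0.22, Tnfrsf1a at 0.03, Fas at -0.15 and Tnfrsf21 at -0.17. Cflar stood at -0.02, the mean of 2 probes that went opposite ways. They read 0.37 and -0.05 in wild-type LPS/GalN and -0.04 and 0.33 in TMX-/- LPS/GalN liver. Casp8 fell short of 2-fold when all arrays were given the same spread, at 0.85, and Tnfrsf12a then stood at 2.01, rank 40.

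The response in TMX-/- minus the response in wild-type liver was 3.73 for Tnfrsf12a (rank 7) and 1.12 for Bid, 2 of 8 members at 2-fold, against 9.82% of genes higher and 11.6% lower, 21.4% in all. In this difference the untreated wild-type reference enters once and untreated TMX-/- liver once. For Bid this sum holds its values below 0 in both of the other livers. Casp8 stood at 0.69, Tnfrsf1a at 0.51, Birc3 at 0.49, Tnfrsf1b at 0.36, Cflar at 0.14 and Fas at -0.38, against an SD of a single probe of 0.65. With equal spread Tnfrsf12a stood at 1.33 and only ranked 556, so how far its response differs between the genotypes depends on the unequal spread of the arrays.

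**Figure D2:**
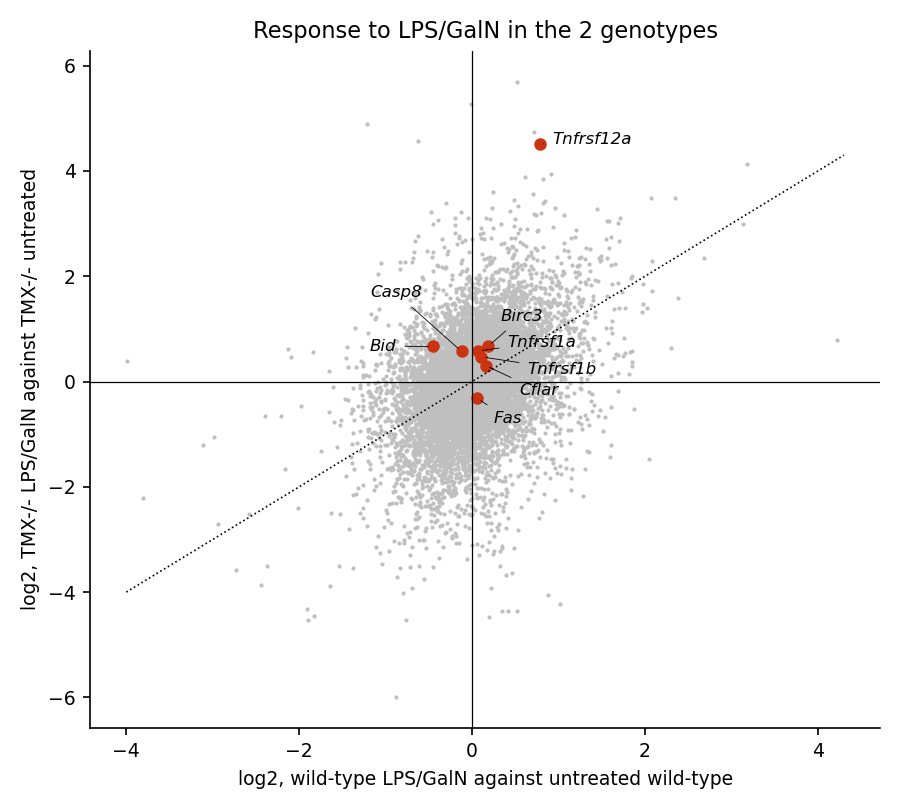
Log2 response to LPS/GalN in wild-type liver (horizontal axis, against the untreated wild-type reference) and in TMX-/- liver (vertical axis, against TMX-/- untreated liver) for 10179 genes in grey and 8 members in red; the dotted line marks equal responses. Tnfrsf12a lies at 0.78 and 4.51, near the upper edge of all genes, while the other members lie within the main cloud.

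The genes most like Tnfrsf12a were sought by Euclidean distance over the 3 centred log2 ratios. The nearest was Ier3, an immediate early gene and known NF-kB target, at a distance of 0.56, with ratios of 0.92, 0.46 and 4.40 in wild-type LPS/GalN, TMX-/- untreated and TMX-/- LPS/GalN liver. S100a4, a calcium-binding protein gene of myeloid cells and fibroblasts, followed at 0.59, with 0.71, 0.71 and 5.45. Ly6d lay at 0.91, S100a11 at 1.12 and the mitochondrial carrier gene Slc25a24 at 1.14. All 5 were at least 3.82 in TMX-/- LPS/GalN liver and under 1 elsewhere. With 3 arrays this likeness is set almost wholly by 1 of them.

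The ligands were poorly covered. Of 18 TNF family ligand genes, 5 had a value on all arrays. Tnf itself was blank on all 3, and Tnfsf12, which encodes TWEAK, was not analysed here, so the ligand of the one receptor that stood out has no value. Fasl, Fas ligand, stood at -0.40 in wild-type LPS/GalN and -0.84 in TMX-/- LPS/GalN liver and was blank in TMX-/- untreated liver. Tnfsf10, which encodes TRAIL, had a value of 0.14 in TMX-/- LPS/GalN liver alone. Tnfsf13b, which encodes the B cell factor BAFF, was 2-fold higher in all livers, at 1.61, 1.59 and 1.11, and its response in TMX-/- minus that in wild-type liver was -2.09. With equal spread it stood at 2.14, 2.53 and 0.69. The related Tnfsf13 stood at 0.99, 0.37 and 1.85. Tnfsf8 was the 1 ligand 2-fold lower in TMX-/- LPS/GalN liver, at -1.11, where 13.2% of all genes were lower. Ltb was 1.16 higher in TMX-/- LPS/GalN than in wild-type LPS/GalN liver.

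Other TNF receptor genes did not share the size of Tnfrsf12a. Of 23 listed, 10 had 3 values, and in treated against untreated TMX-/- liver 1 was 2-fold higher and 2 were lower, with a median of -0.20. These shares lie near those of all genes in that comparison, 11.4% higher and 12.1% lower, beside which the counts of the lists that follow are also to be read. Tnfrsf11b, which encodes osteoprotegerin, a soluble decoy receptor, stood at 0.81, 0.60 and 2.65 in wild-type LPS/GalN, TMX-/- untreated and TMX-/- LPS/GalN liver. It was highest in the same liver as Tnfrsf12a, but in treated against untreated TMX-/- liver it stood at 2.05, and at 0.69 with equal spread of the arrays, where Tnfrsf12a stood at 4.51 and 2.37. Ngfr, the neurotrophin receptor, stood at 0.30, 0.77 and 1.54. Tnfrsf19 (-1.07) and the decoy receptor gene Tnfrsf23 (-1.26) were the 2 at 2-fold lower in TMX-/- LPS/GalN liver, where 13.2% of all genes were lower.

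Among 18 of 22 adaptor and kinase genes with 3 values, Mlkl was the highest in TMX-/- LPS/GalN liver. Necroptosis is a caspase-independent death in which RIPK3 phosphorylates MLKL, which ruptures the membrane. Mlkl stood at 1.06 in wild-type LPS/GalN liver, 0.44 in TMX-/- untreated liver and 3.08 in TMX-/- LPS/GalN liver. Ripk3 stood at 1.12, 0.10 and 1.03, so that TMX-/- minus wild-type liver came to -0.09 after treatment. With equal spread Ripk3 stood at 1.48, 0.16 and 0.64, and that difference came to -0.85. Mlkl and Ripk3 were the 2 genes of the list at 2-fold in wild-type LPS/GalN liver, where 2.8% of all genes were higher. In TMX-/- LPS/GalN liver they were joined by Daxx (1.03) and Traf2 (1.01), where 13.6% of all genes were higher. With equal spread Daxx and Traf2 both stood at 0.63 in TMX-/- LPS/GalN liver, and only 1 gene of the list, Mlkl, was 2-fold higher there. The death domain adaptor genes were not high there, with Fadd at 0.11, Tradd at -0.53 and Ripk1 at -0.11. The list had a median of 0.28 in treated against untreated TMX-/- liver, with 3 higher (Mlkl 2.64, Traf6 1.49 and Traf2 1.11) and 0 lower. For Traf6 most of this is its value of -1.17 in TMX-/- untreated liver. With equal spread Mlkl stood at 1.21, Traf6 at 2.06 and Traf2 at 0.78.

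Of 16 other caspase and apoptosome genes 9 had 3 values. Casp4 encodes caspase-11, which binds LPS in the cytosol, and stood at 0.39 in wild-type LPS/GalN, 0.48 in TMX-/- untreated and 2.59 in TMX-/- LPS/GalN liver. Apaf1, the scaffold on which cytochrome c activates caspase-9, was above 0 in all livers at 1.18, 0.61 and 1.58. Dffb, the nuclease that cuts DNA in apoptosis, was low at -0.37, -0.88 and -1.64. In treated against untreated TMX-/- liver Casp4 alone of the list was 2-fold higher, at 2.10, and none was lower, but with equal spread it stood at 0.83.

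Of 22 BCL2 family genes 10 had 3 values, with a median of -0.02 in treated against untreated TMX-/- liver. Bok, a pro-apoptotic member, was the only one of these 10 at 2-fold (ratios of 0.91, 0.12 and 1.62 on the 3 arrays, and a treated minus untreated difference of 0.81 with equal spread). Among genes blank on 1 or 2 arrays, Pmaip1, Bcl2l14 and Bcl2l11 stood at 2.56, 2.57 and 1.70 in TMX-/- LPS/GalN liver. Pmaip1 was 1.73 higher there than in TMX-/- untreated liver, but only 0.27 higher with equal spread. The anti-apoptotic genes Mcl1, Bcl2l1 and Bcl2 stood at 0.19, -0.24 and -0.30 in treated against untreated TMX-/- liver, all smaller than the SD of a single probe (0.67). Of 9 other IAP genes 3 had a value on all arrays, and Birc5, which encodes the mitotic protein survivin, was 1.01 higher. Its values were -0.55, -0.41 and 0.60 on the 3 arrays.

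The list of NF-kB genes and their feedback inhibitors was the most fully covered of the pathway lists. Of 20 measured of 21 listed, 8 were 2-fold higher and 0 lower in treated against untreated TMX-/- liver, against 11.4% and 12.1% of all genes, with a median of 0.77 where the median of all genes was -0.000695. In wild-type LPS/GalN liver 1 of 20 was 2-fold higher, against 2.8% of all genes, namely Gadd45b, a stress gene that restrains JNK signalling, at 1.68. Ier3, named above, was highest at 3.94 in treated against untreated TMX-/- liver, followed by Tnip1, a ubiquitin-binding inhibitor of NF-kB, at 1.92, Gadd45b at 1.87 and the subunit gene Nfkb2 at 1.42. The others at 2-fold were Nfkbiz at 1.31, Ikbkg at 1.29, Nfkbie at 1.28 and Nfkb1 at 1.04. Of the genes of the list below 2-fold, Tnfaip3, which encodes A20, stood at -0.46, the mitochondrial superoxide dismutase gene Sod2 at -0.85 and Nfkbia at 0.33. Chuk, an IkB kinase gene, was lowest at -0.89. With equal spread of the arrays 5 genes of the list were 2-fold higher and 0 lower, against 14% of all genes either way. The 5 were Ier3 at 1.98, Tnip1 at 1.44, Nfkbie at 1.29, Nfkb2 at 1.23 and Ikbkg at 1.02. Nfkbiz then stood at 0.85, Nfkb1 at 0.46, Gadd45b at 0.35 and Tnfaip3 at 0.02.

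**Figure D3:**
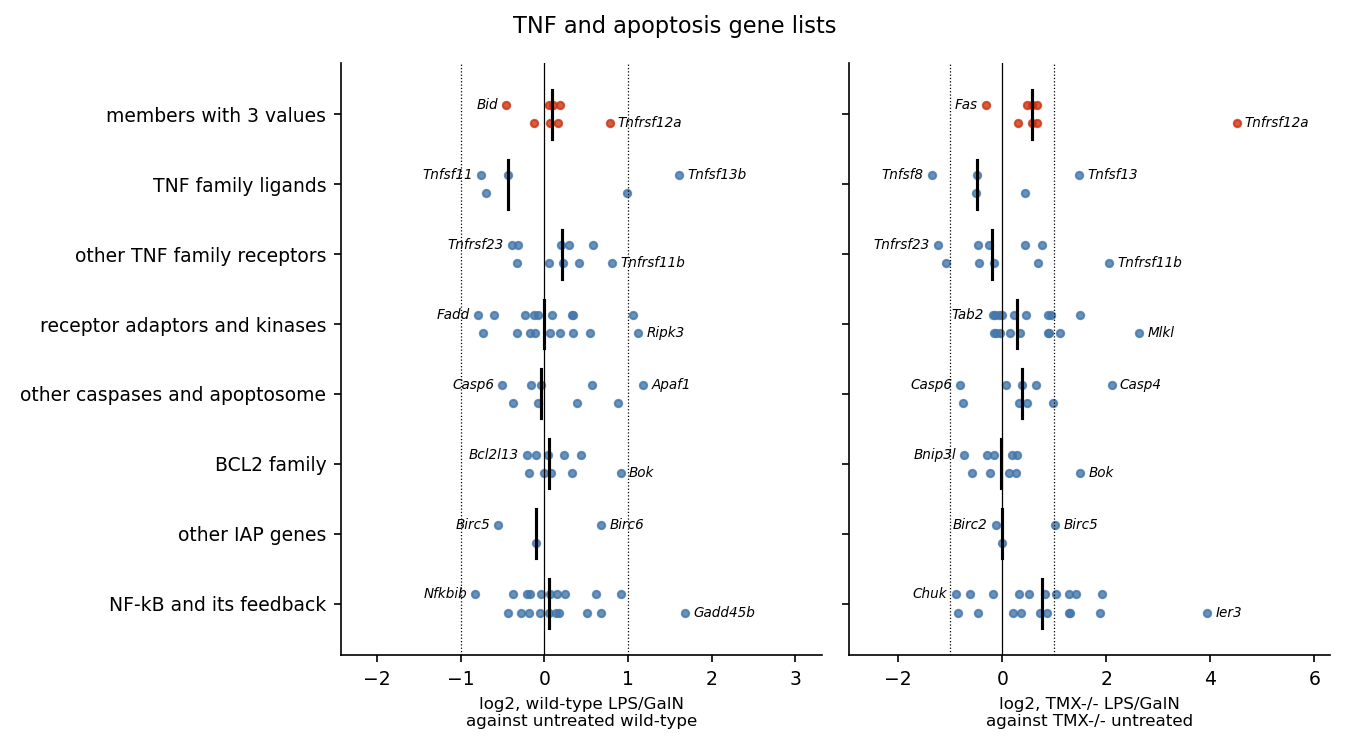
Log2 response to LPS/GalN (horizontal axes) in wild-type liver on the left and TMX-/- liver on the right, one point per gene with a value on all arrays, black bars for list medians, dotted lines for 2-fold and names at the ends of each list. Tnfrsf12a at 4.51 and Ier3 at 3.94 in TMX-/- liver lie beyond all other genes of the lists, where the list medians lie between -0.48 and 0.77.

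Cell type markers differed between the livers as well, and medians are over markers with a value on all arrays. In bulk liver, fewer cells of a type and less RNA per cell cannot be told apart. In TMX-/- LPS/GalN liver, hepatocyte markers (8 of 9) had a median log2 ratio of -1.83, from Cyp2e1 at -4.47 to Apob at -0.14, against -0.22 in wild-type LPS/GalN liver. Monocyte markers (3 of 7) stood at 3.09, from Ly6c1 at 2.41 to S100a4 at 5.45, and neutrophil markers (5 of 10) at 2.66, from Ly6g at -2.50 to S100a9 at 4.45, against 0.91 and -0.30 in wild-type LPS/GalN liver. In TMX-/- untreated liver hepatocyte, monocyte and neutrophil markers stood at -0.41, 0.93 and -0.18. With equal spread hepatocyte markers stood at -0.29 in wild-type LPS/GalN, -0.65 in TMX-/- untreated and -1.13 in TMX-/- LPS/GalN liver. In that order monocyte markers then stood at 1.20, 1.47 and 1.91, and neutrophil markers at -0.40, -0.29 and 1.64. Ccr2, a monocyte marker blank in TMX-/- untreated liver, stood at 2.03 in wild-type LPS/GalN and 4.18 in TMX-/- LPS/GalN liver. With equal spread Ccr2 stood at 2.70 and 2.58. Itgam, a monocyte marker with a value in TMX-/- LPS/GalN liver alone, stood at 2.55 there. Macrophage markers (11 of 11) stood at 1.16 in wild-type LPS/GalN, 0.79 in TMX-/- untreated and 1.45 in TMX-/- LPS/GalN liver, and with equal spread at 1.54, 1.25 and 0.89, which turns the order of the treated livers. T and NK cell markers (5 of 11) stood at 0.62, 0.78 and 0.79 in the same order, and with equal spread at 0.82, 1.24 and 0.49. B cell (2 of 5) and stellate cell markers (5 of 9) stood at 1.03 and 1.18 in TMX-/- LPS/GalN liver, and endothelial (6 of 9) and cholangiocyte markers (5 of 6) at 0.33 and 0.35. With equal spread B cell and stellate cell markers stood at 0.64 and 0.73 in TMX-/- LPS/GalN liver, and at 0.47 and 0.64 in wild-type LPS/GalN liver. A ratio gives no level, so whether a marker is near 0 cannot be read from it. Of the myeloid and biliary markers, Ly6c2, Lyz2, Elane and Krt7 were not analysed here, and the neutrophil markers Mpo and Ngp were blank on all arrays. The part of these shifts in the values of Tnfrsf12a, Casp8 and the other members was not tested.

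**Figure D4:**
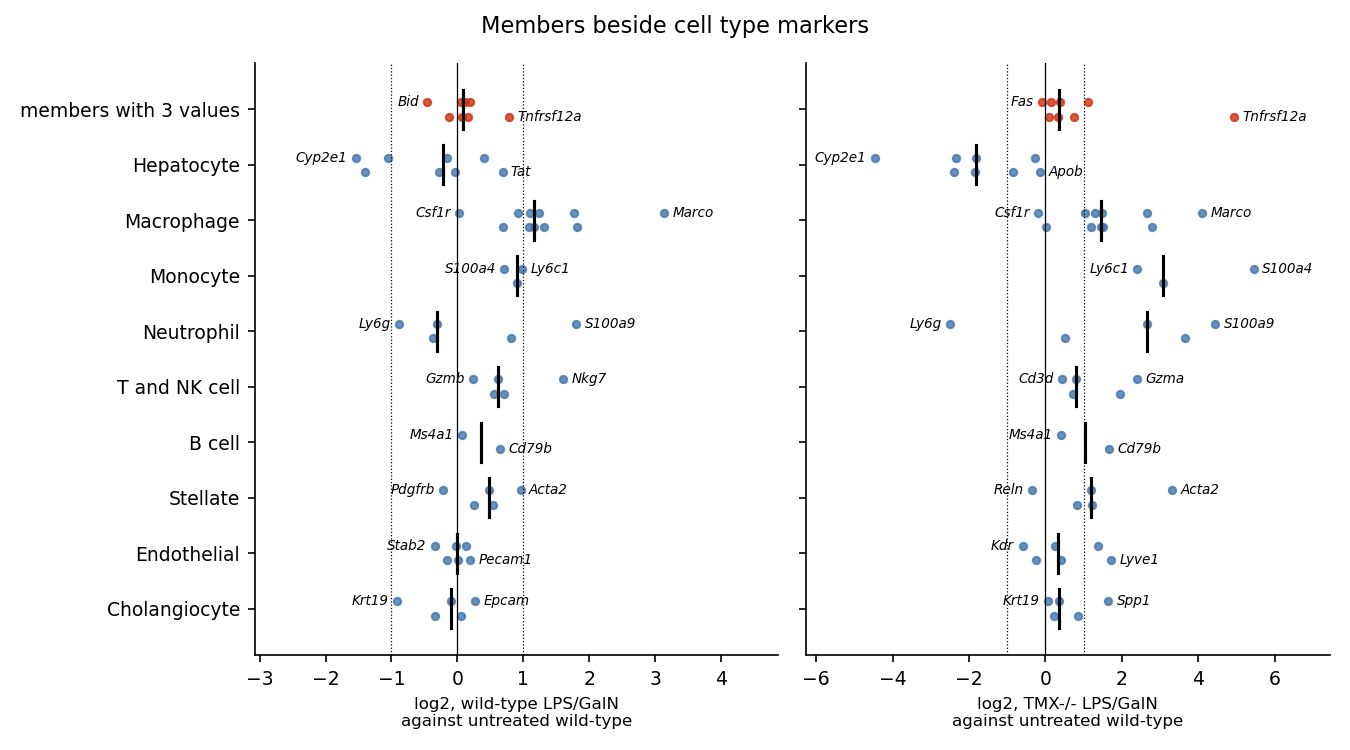
Log2 ratio to untreated wild-type liver (horizontal axes) in wild-type LPS/GalN liver on the left and TMX-/- LPS/GalN liver on the right for 8 members in red and cell type marker genes in blue, with black bars for medians and dotted lines for 2-fold. Tnfrsf12a at 4.94 lies between the myeloid markers S100a9 at 4.45 and S100a4 at 5.45, while hepatocyte markers reach -4.47.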

How the data were processed

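Liver RNA was amplified, dye-coupled and hybridised to 3 arrays of 2 channels, per the labels' protocols. The authors deposited log ratios, which were taken as log2. Their base and numerator, the image analysis, the normalization and why some cells are blank: not given in the sources used here. If the logarithm was natural, folds are larger than given. The deposited medians lay between -6.94e-05 and 1.14e-04, so each array had been centred by the authors. Of 23473 rows, 16631 had 1 symbol in GEO's platform annotation, 0 several and 6842 none. Of these symbols, 3947 were renamed through RefSeq synonyms (GRCm38.p6). Another 62 were left as annotated, being neither a current name nor a synonym of 1 gene alone.

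Probes with a value on all arrays were averaged per gene and each array was centred on its median over 10179 genes (-0.05, -0.03 and -0.07), with pandas 2.3.3 in Python 3.11.15. With 1 array per group no difference was tested for significance, and the counting of 2-fold genes was checked on simulated data. The number of arrays limits precision, and no signal or background was given, so nothing shows which genes were dim. Promoter sequences of all 9 members came from RefSeq; no protein sequence is shown. The members and the 16 other lists were chosen with earlier results of these data known. Named are all members, Tmx1, 4 ligands (Tnf, Fasl, Tnfsf10, Tnfsf12), at most 4 genes per list and direction at 2-fold, the ends of marker lists and the 5 genes nearest to Tnfrsf12a. A few more list genes (Fadd, Tradd, Ripk1, Mcl1, Bcl2l1, Bcl2, Tnfaip3, Sod2, Nfkbia, Nfkbiz, Ikbkg, Nfkbie, Nfkb1, Pmaip1, Bcl2l14, Bcl2l11, Ccr2, Itgam) were named after their values were seen.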

Additional observations from a re-analysis of the deposited data

Results flagged for a closer look

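For 3 members the response to LPS/GalN had opposite signs in the 2 genotypes, each seen on single arrays, and the difference was not tested. Bid stood at -0.46 in wild-type and 0.67 in TMX-/- liver, a difference of 1.12. Casp8 stood at -0.12 and 0.57, a difference of 0.69. When all arrays were given the same spread, Casp8 stood at -0.16 and -0.17, with the same sign, and the difference was -0.01. Fas stood at 0.06 and -0.32, a difference of -0.38. For Casp8 and Fas both responses were smaller than the SD of a single probe (0.42 in wild-type and 0.67 in TMX-/- liver), so no direction is given. The SD of a single probe for such a difference was 0.65, which only Bid exceeded clearly.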

How the results depend on the processing

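With 1 array per group no replicate could be left out, and no signal over background was given. No paired analysis was possible because each group has 1 array and no test was made. The count of members at 2-fold was within 1.5 times its main value in 34 of 43 comparisons with an alternative setting. With all arrays scaled to the same SD it was 1 (Tnfrsf12a) in wild-type LPS/GalN against untreated wild-type liver, where it had been 0, and 1 (Tnfrsf12a) in TMX-/- LPS/GalN against untreated wild-type and against wild-type LPS/GalN liver, where it had been 2. All genes at 2-fold either way then made up 10%, 10.5% and 9.7% in these comparisons in turn. At 3-fold the member count was 1 (Tnfrsf12a) in each of these last 2 comparisons and in the difference of the responses, where it had been 2. The shares of all genes were 11.1%, 7.54% and 7.58%. At 1.5-fold the member count was 1 in wild-type LPS/GalN liver, against 18% of all genes. It was 3 (Tnfrsf12a, Bid and Birc3) in treated against untreated TMX-/- liver, where it had been 1, against 46.8% of all genes. Read as natural logarithms it was 1 in wild-type LPS/GalN liver, against 12.3% of all genes. Leaving out the centring, or taking the probe with the largest value, changed no count. These settings could change little, since the medians removed were -0.05, -0.03 and -0.07 and only Cflar has 2 probes. Each supplied 51 of the 161 single values that follow. Of 161 single values of members under an alternative, 9 moved by more than the SD of a single probe, 6 with equal spread and 3 with TMX-/- untreated liver as the untreated liver, which put Tnfrsf12a at 0.35, Tnfrsf1a at 0.55 and Casp8 at -0.66 in wild-type LPS/GalN liver. No value of 2-fold changed sign under these settings. The cause was not tested.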

Other observations

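Several genes of the pathway had a value on 1 array alone, and the rule behind the blanks is unknown, so these values are given without comparison. In TMX-/- LPS/GalN liver alone, Bcl2l11, which encodes the BH3-only protein BIM, stood at 1.70, Tnfsf9 at 1.17, Tnfrsf10b, the mouse TRAIL receptor gene, at 1.15, Eda2r at 0.996, Traf1, an NF-kB-induced adaptor gene, at 0.75 and Tnfrsf8 at 0.37. In wild-type LPS/GalN liver alone, Tnfrsf13b stood at 2.70, Xiap, an inhibitor of caspases, at 1.81, Tnfrsf17 at 1.32, Tnfrsf14 at 1.14, Bmf at 0.75 and Dffa at 0.54. In TMX-/- untreated liver 0 of the 131 listed pathway genes had a value alone.

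Among genes with a value on 2 arrays, Pmaip1, which encodes the BH3-only protein NOXA, stood at 0.83 in TMX-/- untreated and 2.56 in TMX-/- LPS/GalN liver. With equal spread Pmaip1 stood at 1.32 and 1.58. Bcl2l14 stood at 0.35 in wild-type LPS/GalN and 2.57 in TMX-/- LPS/GalN liver, and Casp12 at 0.16 and 0.97. Casp9, the caspase of the apoptosome, stood at -0.52 in TMX-/- untreated and -0.55 in TMX-/- LPS/GalN liver. These genes were chosen after their values were seen.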
